A study of Bos taurus with 6 samples.

Results

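The MYC network is a family of basic helix-loop-helix leucine zipper transcription factors that share the partner MAX. Its 10 members were taken here as the entries named MYC, MYCN, MYCL, MAX, MXD1, MXD3, MXD4, MXI1, MNT and MGA among the 32183 genes in each FPKM table, and each name matched a single entry. RNA was sequenced from rumen epithelial primary cells (REPC) isolated from a single 2-week-old Holstein bull calf fed milk replacer only. In 3 cultures, 5 mM butyrate was added to the medium for 24 h, and the other 3 cultures were controls for which the labels give no agent. Butyrate is a short-chain fatty acid made by fermentation in the rumen and an inhibitor of histone deacetylases. All cultures come from the same calf, so the p-values measure the spread between cultures and not between animals.

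MYC, MYCN and MYCL promote growth and division when bound to MAX at E-boxes, short DNA elements in the promoters of genes for ribosome production, nucleotide synthesis and metabolism. MXD1, MXD3, MXD4 and MXI1 bind MAX in place of MYC and recruit SIN3 and histone deacetylases to repress the same kind of genes. MNT is a broadly expressed antagonist of the same type, and MGA is a large MAX partner that works with Polycomb proteins. In epithelia, high MYC is a feature of dividing basal cells, and MXD1 is known as a gene of differentiating cells.

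The sum of FPKM (fragments scaled to transcript length and to the mapped fragments of the library) lay between 678035 and 681912 in control and between 619401 and 629037 after butyrate. The confidence bounds deposited with each FPKM correspond to between 5756609 and 6186809 fragments per culture, which is an approximation. The summed FPKM of 13 epithelial markers was 6199 to 6479 in control and 8917 to 9234 after butyrate, with KRT17, KRT8 and KRT5 in every culture. GRHL2 was listed at 0 in all 3 control cultures and EPCAM was at most 0.737 there. Of the 12 tested, 8 were called higher, with the mean of KRT19 going from 492 to 1953 and that of KRT14 from 72.5 to 500. The rise was not shared by all, since KRT5 was called lower and KRT17, CDH1 and DSP did not pass the test. The 10 fibroblast markers summed to 4458 to 4606 and then 6492 to 6827, led by VIM and COL1A1. Others of this list were low, with PDGFRB at most 0.152, LUM at most 0.662 and PDGFRA at most 1.15 in any culture. The 6 smooth muscle markers summed to 6891 to 7230 in control and 3215 to 3865 after butyrate, with MYH11 under 1 in every culture. Of these 6, 5 were called lower, though the mean of ACTG2 only went from 429 to 386. DES was called higher, from a mean of 0.367 to 1.60. Transcripts of some mesenchymal genes, such as VIM and COL1A1, were thus abundant beside the keratins. The 5 endothelial markers summed to at most 8.43 and the 7 leukocyte markers to at most 9.48, with CDH5, LYZ and PTPRC listed at 0 throughout. The 8 markers of cycling cells fell from a summed FPKM of 337 to 346 in control to 18.6 to 22.3 after butyrate, and all 8 were called lower. In such bulk RNA, fewer cells of a type and less RNA per cell cannot be told apart.

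Butyrate left the network with less MYC, MXD1 and MXD4 and with more MYCL and MXI1. A gene was called higher or lower when its Benjamini-Hochberg adjusted p from limma was under 0.05, and the adjustment covered the 15813 genes whose mean FPKM reached 0.1. Of the 9 members tested, MYCL and MXI1 rose and MYC, MXD1 and MXD4 fell, while MAX, MXD3, MNT and MGA did not pass the test. MYCN was too low to be tested. The 5 calls among 9 members stand beside a background in which 58.4% of all tested genes were called, 32.5% higher and 25.9% lower. A share of this size is close to the background, so the count alone is not a result about the network. Growth-promoting members and antagonists were found on both sides. The stricter thresholds of the study asked for a log2 change past 2 in size and for a Bonferroni-adjusted p below 0.05. Applied to the limma results here, they were passed by 3.97% of all genes and 0 members. The study itself used Cufflinks for its test, and its own gene counts differ from these. The sums of the cycling, epithelial, fibroblast and smooth muscle markers given above moved with the same contrast, and their part in the members' changes was not tested.

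**Figure D1:**
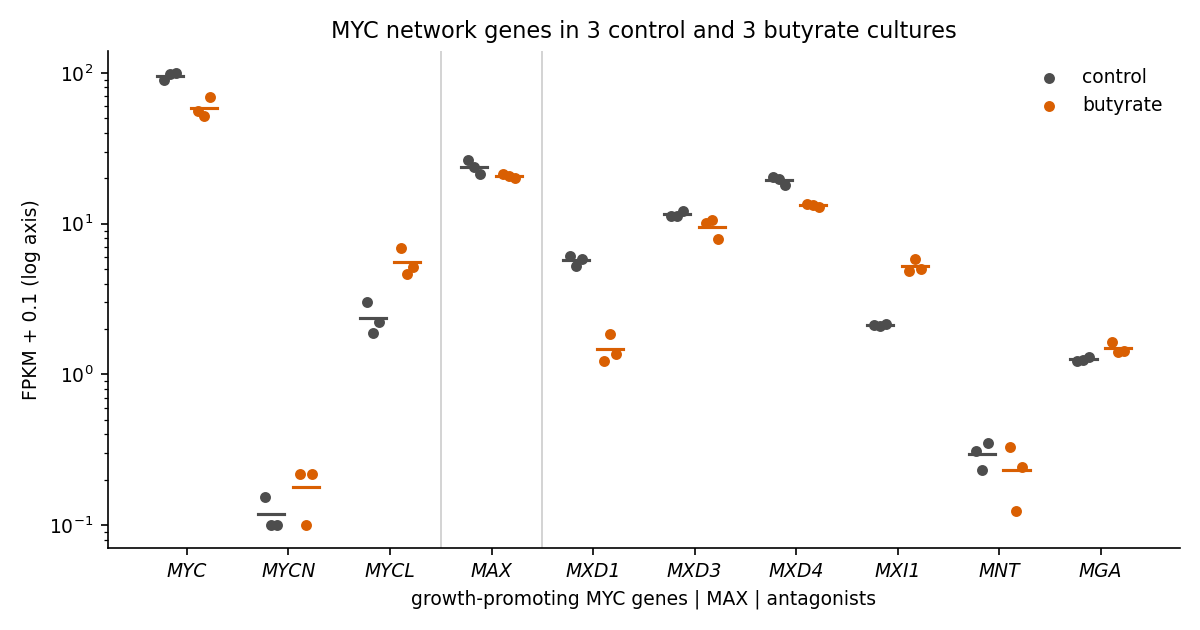
FPKM + 0.1 on a log axis for each member in the 3 control (grey) and 3 butyrate (orange) cultures, with points for cultures and lines for group means. MYC lies highest in both groups, from 89.5 to 99.1 FPKM in control and from 51.3 to 69.5 after butyrate. The groups of MYC, MYCL, MXD1, MXD3, MXD4, MXI1 and MGA do not overlap, as for 65.0% of all tested genes.

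MYC, the ubiquitous growth-promoting member, lies on chromosome 14 from 13769242 to 13775688 (UMD3.1 coordinates, as for the positions that follow). In the order of their replicate numbers, as in all lists of 3 values here, the control cultures had 89.5, 97.5 and 99.1 FPKM and the butyrate cultures 55.6, 51.3 and 69.5 FPKM. Every butyrate culture lay under every control culture, and butyrate replicate 3 was the highest of its group. The mean went from 95.3 ± 5.16 (SD, n = 3) to 58.8 ± 9.52 (SD, n = 3), a ratio of 0.617. On the log2(FPKM + 0.1) scale used for all fold changes, MYC fell by 0.71 with a standard error of 0.11 (limma, adjusted p = 0.000461). MYC still exceeded 88.2% of all tested genes by mean FPKM after butyrate, against 91.8% in control. Between 499 and 785 fragments stood behind each value, so counting error was small beside the change.

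MYCL, the family member first found in lung cancer, lies on chromosome 3 from 106787216 to 106794123 and moved the other way. Its FPKM was 2.94, 1.77 and 2.14 in the control cultures and 6.74, 4.54 and 5.02 in the butyrate cultures. The groups did not overlap, and the mean rose from 2.28 ± 0.596 (SD, n = 3) to 5.44 ± 1.16 (SD, n = 3). This is a log2 fold change of 1.23 ± 0.22 (SE, limma, adjusted p = 0.00145). Even so MYCL stayed a small part of the growth-promoting sum, of which MYC made up 97.6% ± 0.761 (SD, n = 3) in control and 91.3% ± 2.10 (SD, n = 3) after butyrate.

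MYCN, known from neural progenitors and neuroblastoma, lies on chromosome 11 from 82693611 to 82697432. It was listed at 0.0539, 0 and 0 FPKM in control and at 0.119, 0 and 0.118 after butyrate. These values correspond to between 0 and 2 fragments per culture, so no difference between the groups was detectable at this depth.

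MAX, the partner that the other members share, lies on chromosome 10 from 77514256 to 77541668. Its FPKM was 26.4, 23.6 and 21.1 in control and 21.2, 20.7 and 20.03 after butyrate. The groups overlapped slightly, since control replicate 3 lay under butyrate replicate 1. The log2 fold change was -0.19, with a 95% interval from -0.40 to 0.013 (limma, adjusted p = 0.0968). Without control replicate 3 it was -0.27 and passed the test (limma, adjusted p = 0.0278), and after rescaling every culture to the same total it was -0.07.

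Among the antagonists, MXD1 showed the largest change in size of the 9 members tested. MXD1, a repressor of growth genes in differentiating cells, lies on chromosome 11 from 68232862 to 68258891. Its FPKM was 6.01, 5.17 and 5.69 in control and 1.12, 1.76 and 1.26 after butyrate, a wide gap without overlap. The mean went from 5.63 ± 0.422 (SD, n = 3) to 1.38 ± 0.335 (SD, n = 3), a ratio of 0.245. The log2 fold change of -1.97 had a standard error of 0.19 (limma, adjusted p = 3.5e-05) and was lower than that of all but 2.62% of tested genes. MXD1 came just short of both of the study's thresholds, with a change under 2 in size and a Bonferroni-adjusted p of 0.0783 from limma.

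MXI1, also called MXD2, lies on chromosome 26 from 31041108 to 31135077 and rose. Its FPKM was 2.02, 1.996 and 2.06 in control, nearly the same in each culture, and 4.78, 5.75 and 4.89 after butyrate. The mean went from 2.03 ± 0.0342 (SD, n = 3) to 5.14 ± 0.530 (SD, n = 3), a ratio of 2.53. This is a log2 fold change of 1.30 ± 0.14 (SE, limma, adjusted p = 7.3e-05). The values rest on 67 to 178 fragments per culture.

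By FPKM, MXD4 and MXD3 were the most abundant antagonists in both groups. Their values rest on 35 to 52 and 37 to 58 fragments per culture, fewer than the 142 to 182 of MGA. This rank therefore depends on the transcript lengths behind FPKM, which were not checked. MXD4, known from cells that have left the cycle, lies on chromosome 6 from 108490155 to 108504372. Its FPKM was 20.2, 19.8 and 18.1 in control and 13.4, 13.2 and 12.8 after butyrate, again without overlap. MXD4 fell by 0.56 on the log2 scale with a standard error of 0.08 (limma, adjusted p = 0.000313). MXD3, which unlike its relatives is known from cells in S phase, lies on chromosome 7 from 40136159 to 40142642. Its FPKM was 11.1, 11.1 and 12.0 in control and 10.1, 10.4 and 7.76 after butyrate. The groups did not overlap, but the gap was narrow and the log2 fold change of -0.29 did not pass the test (95% interval from -0.57 to -0.0015, limma, adjusted p = 0.0784).

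MNT and MGA did not pass the test on FPKM as deposited. MNT lies on chromosome 19 from 23930806 to 23946814, and its FPKM was 0.211, 0.132 and 0.251 in control and 0.230, 0.0250 and 0.144 after butyrate. At 1 to 7 fragments per culture, its 95% interval from -1.55 to 0.66 leaves a change in either direction undecided at this depth (limma, adjusted p = 0.458). After quantile normalization MNT was at -1.31 and passed the test (limma, adjusted p = 0.0334). MGA lies on chromosome 10 from 37135431 to 37284139, and its FPKM was 1.13, 1.14 and 1.20 in control and 1.55, 1.31 and 1.34 after butyrate. The groups of MGA did not overlap, yet its log2 fold change of 0.25 had a 95% interval from -0.20 to 0.70 (limma, adjusted p = 0.306). The sign of MGA was not fixed, since it was -0.21 after quantile normalization.

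**Figure D2:**
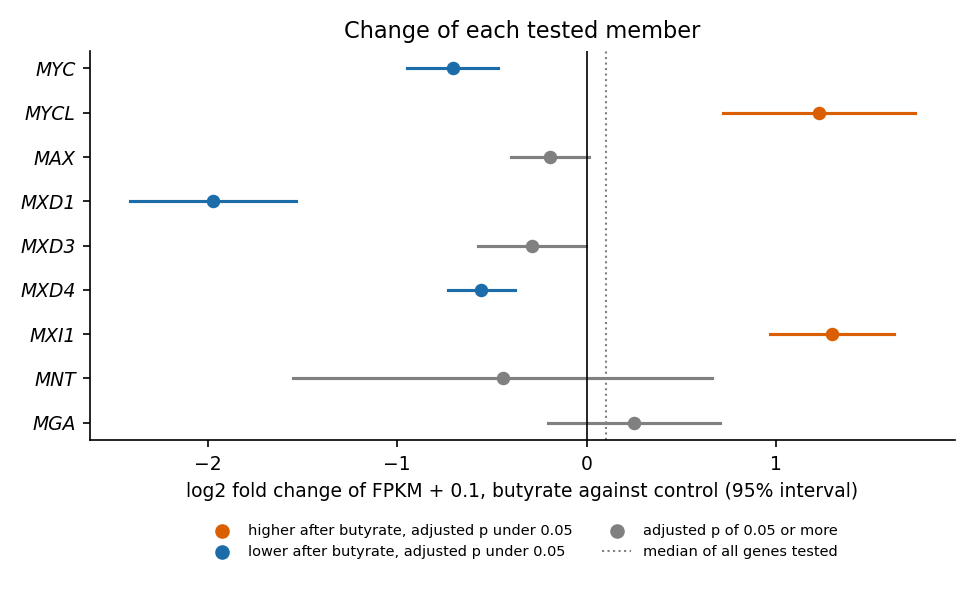
Log2 fold change of FPKM + 0.1 between butyrate and control for the 9 members tested, with 95% intervals from limma on the horizontal axis and the median of all tested genes (0.10) as a dotted line. MYCL at 1.23 and MXI1 at 1.30 lie to the right, MXD1 at -1.97 lies farthest left, and the intervals of MAX, MNT and MGA cross 0.

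In 7 of the 9 members tested the groups did not overlap, beside 65.0% of all tested genes. MYCL, MXI1 and MGA lay higher after butyrate in this way, as did 36.1% of all genes, and MYC, MXD1, MXD3 and MXD4 lay lower, as did 28.9%. The median log2 fold change of the 9 members was -0.29, and that of all genes was 0.10. Rescaling each culture to the same total moved the median of all genes by 0.12 to 0.22, and quantile normalization moved it by -0.15 to -0.05. Under these scalings MYC stayed lower, at -0.58 and -0.60, and so did MXD1, at -1.88 and -2.26, while MXI1 stayed higher, at 1.43 and 1.08, and MYCL at 1.36 and 1.03.

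FPKM is divided by transcript length, so levels can be ranked between members as far as the annotated lengths hold, which was not checked. The order of mean FPKM in control was MYC, MAX, MXD4, MXD3, MXD1, MYCL, MXI1, MGA, MNT and MYCN, and only MYCL and MXI1 overlapped as neighbours. After butyrate the order from MYC to MXD3 was kept, MYCL and MXI1 followed, and MXD1 came down beside MGA. In that group the values of MYCL and MXI1, of MGA and MXD1, and of MNT and MYCN overlapped.

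Ratios between members of the same culture are not changed by a single scaling factor per library, as in the rescaling to a common total, but quantile normalization can change them. The ratio of MXI1 to MXD1 was 0.337, 0.386 and 0.362 in control and 4.27, 3.27 and 3.88 after butyrate. The ratio of MYC to MXD1 rose from between 14.9 and 18.8 to between 29.2 and 55.1, whereas that of MYC to MXI1 went from between 44.2 and 48.8 down to between 8.92 and 14.2. MYC thus lost ground to MXI1 and gained it on MXD1, and neither ratio overlapped between groups. The FPKM summed over the 3 growth-promoting members was 92.5, 99.2 and 101.2 in control and 62.5, 55.8 and 74.6 after butyrate. The sum over the 6 antagonists fell as well, from 40.7, 39.3 and 39.3 to 31.1, 32.5 and 28.2. Their quotient was 2.46 ± 0.163 (SD, n = 3) in control and 2.12 ± 0.475 (SD, n = 3) after butyrate, and the groups overlapped, because butyrate replicate 3 reached 2.65. MXD3 and MXD4 made up 77.4% ± 1.03 (SD, n = 3) of the antagonist sum in control and 73.7% ± 1.44 (SD, n = 3) after butyrate. These sums and ratios are descriptions, rest on the same transcript lengths and were not tested.

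**Figure D3:**
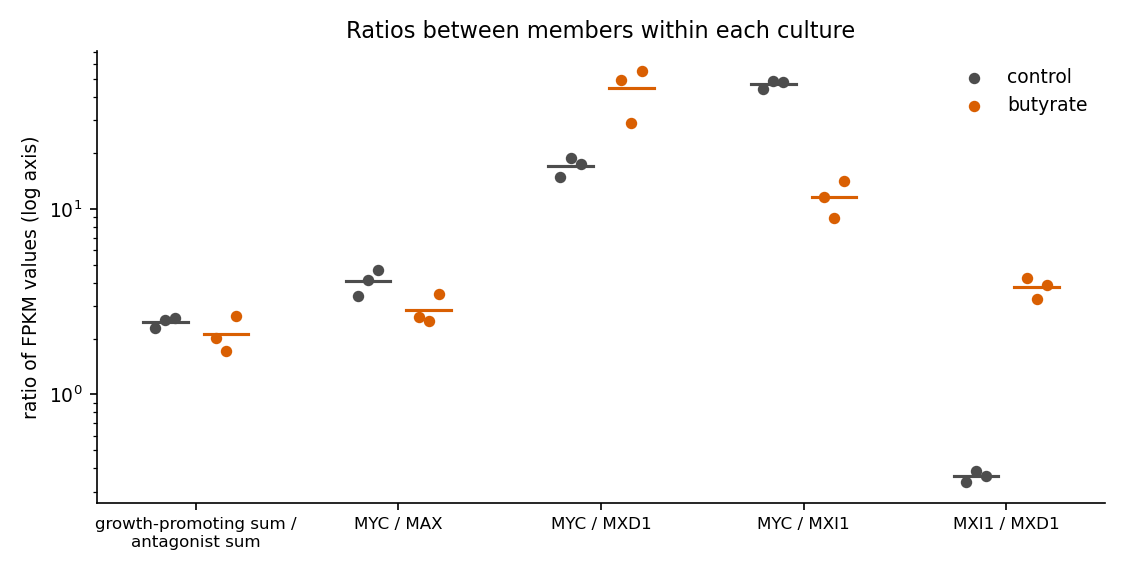
Ratios of FPKM between members within each culture on a log axis, with points for the 3 control (grey) and 3 butyrate (orange) cultures and lines for group means. The summed growth-promoting to antagonist ratio overlaps between groups (2.27 to 2.57 against 1.72 to 2.65), while MXI1 to MXD1 goes from at most 0.386 to at least 3.27.

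RAI1 and ITGB7 were among the genes whose pattern over the 6 cultures was most like that of MYC, with a Pearson r of 0.998 for each on log2(FPKM + 0.1). RAI1, a chromatin-associated regulator of transcription, had 2.54, 2.70 and 2.70 FPKM in control and 1.46, 1.39 and 1.93 FPKM after butyrate. The integrin subunit gene ITGB7 had 2.17, 2.30 and 2.64 FPKM in control and 0.763, 0.659 and 1.23 FPKM after butyrate. In both, as in MYC, butyrate replicate 3 was the highest of its group and control replicate 1 the lowest of its own. These correlations are a description, since all 6 cultures share the treatment contrast and 17 of 15812 genes had an r above 0.99.

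The other genes of the pathway were read from 5 lists written by hand. Of 65 genes listed as activated by MYC, 64 were tested, 59 fell and 2 rose, beside 25.9% lower and 32.5% higher among all genes. Their median log2 fold change was -1.24, against 0.10 for all genes, and lay between -1.30 and -1.21 in the 3 butyrate cultures taken singly. The study's thresholds were passed downwards by 10 of them, where the background was 1.51%.

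Among these 10, the genes of ribosome production were FBL, the methyltransferase of box C/D particles, with a log2 fold change of -2.18, the nucleolar GTPase GNL3 at -2.25, RRP12 at -2.81, GRWD1 at -2.03 and MYBBP1A at -2.13. FBL had 194.8 ± 10.3 FPKM (SD, n = 3) in control and 43.0 ± 3.41 FPKM (SD, n = 3) after butyrate. SRM, the spermidine synthase and a direct target of MYC, fell from 154.2 ± 7.25 (SD, n = 3) to 29.8 ± 3.35 (SD, n = 3), a log2 fold change of -2.37. The other 4 belong to the cell cycle and DNA replication, namely the mitotic kinase PLK1 at -5.40, the centriole kinase PLK4 at -3.05, and the helicase subunits MCM5 at -4.04 and MCM4 at -3.42. MCM4 is uncertain, because the tables hold a further MCM4 entry, at -3.35, and reads could be split between them. The markers of cycling cells named above fell with this list, and their part in its change was not tested.

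The 2 genes of the list that rose were RABEPK, a Rab effector, at 0.55 (limma, adjusted p = 0.00025) and the nucleoside transporter SLC29A2 at 0.94 (limma, adjusted p = 0.00802), whose call was lost without butyrate replicate 2 (limma, adjusted p = 0.0536). SORD, TERT and TMEM97 did not pass the test, with log2 fold changes of -0.08, 0.49 and -0.18. TERT, the catalytic subunit of telomerase, was near the limit of detection, at a mean FPKM of 0.0672 in control and 0.161 after butyrate. TMEM97 passed when control replicate 2 was left out (limma, adjusted p = 0.0233). Among the falls, ODC1 was at -0.26 (limma, adjusted p = 0.0306). Its call was lost when any culture except butyrate replicate 2 was left out (limma, adjusted p from 0.0687 to 0.127). The call of ODC1 was also lost without a filter, without the trend and after both scalings. LDHA lost its call after quantile normalization, at 0.02 (limma, adjusted p = 0.673).

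Of 12 genes listed as repressed by MYC, all 12 were tested, 10 rose and 2 fell, with a median log2 fold change of 0.96 against 0.10 for all genes. The shares called were 83.3% higher and 16.7% lower, beside 32.5% and 25.9% of all genes. CDKN1C, an inhibitor of cyclin-dependent kinases, had 6.40 ± 1.35 FPKM in control and rose to 32.5 ± 4.14 FPKM (SD, n = 3), and TXNIP, a brake on glucose uptake, went from 17.6 ± 0.321 up to 85.7 ± 2.89 FPKM (SD, n = 3). Their log2 fold changes of 2.34 and 2.28 passed the study's thresholds, which 2.46% of all genes passed upwards. The 2 that fell were the matrix protein gene THBS1, at -0.59 (limma, adjusted p = 0.00047), and the kinase inhibitor CDKN1B, at -0.44 (limma, adjusted p = 0.0419). The call of CDKN1B did not last when butyrate replicate 2 or 3 or any control replicate was left out (limma, adjusted p from 0.0847 to 0.126).

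**Figure D4:**
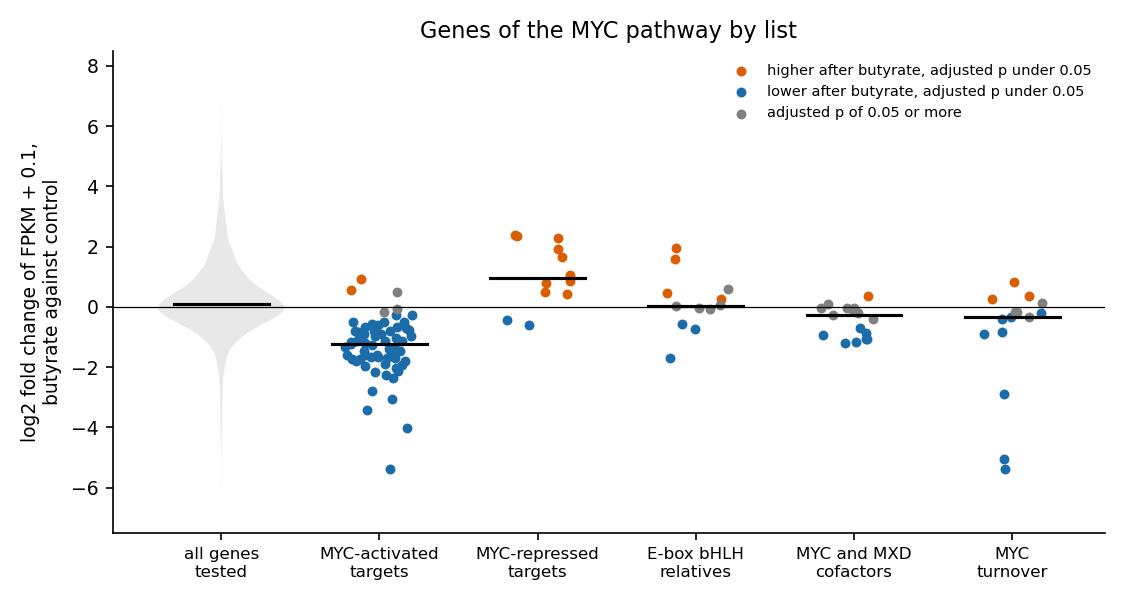
Log2 fold change of FPKM + 0.1 between butyrate and control for all genes tested (grey shape) and for the genes of 5 lists (points, coloured by the test), with black lines for medians. The list of MYC-activated targets lies mostly under 0, with a median of -1.24, and that of MYC-repressed targets mostly above it, with a median of 0.96.

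The E-box relatives are further helix-loop-helix factors that bind the same element or form the parallel MLX branch. Of 13 listed, 12 were tested, 4 rose and 3 fell, and their median of 0.03 lay near that of all genes. The shares called, 33.3% higher and 25% lower, were close to the 32.5% and 25.9% of all genes, so these counts are not a result about the list. The 3 largest rises were those of MLXIPL, the glucose sensor ChREBP, at 1.94 (limma, adjusted p = 0.00411), of MITF at 1.57 (limma, adjusted p = 0.0018) and of ARNT at 0.47 (limma, adjusted p = 0.0233), and USF1 followed at 0.27. The 3 falls were those of TFAP4, itself a known target of MYC, at -1.70 (limma, adjusted p = 0.000592), of USF2 at -0.75 and of TFEB at -0.58. MLXIPL started from a mean FPKM of only 0.0258 and its call was lost after quantile normalization (limma, adjusted p = 0.0598). The call of ARNT was lost without butyrate replicate 1 or 2 or control replicate 2 or 3 (limma, adjusted p from 0.0738 to 0.0954). MLX, the partner in the parallel branch, was at -0.06 and did not pass the test.

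Of 17 cofactors of MYC and of the MXD proteins, 7 fell and 1 rose, with a median of -0.28 against 0.10 for all genes. That is 41.2% lower and 5.88% higher, beside 25.9% and 32.5% of all genes, and the 8 genes called in either direction were a smaller share than the 58.4% of all genes. The largest falls were those of L3MBTL2, which sits with MGA in a Polycomb complex, at -1.22, of the SWI/SNF subunit SMARCB1 at -1.17 and of the acetyltransferase KAT5 at -1.07. The gene that rose was SIN3A, the corepressor bound by the MXD proteins, at 0.35 (limma, adjusted p = 0.039), and its call was lost when any culture except control replicate 2 was left out (limma, adjusted p from 0.0628 to 0.0979). HDAC1 and HDAC2, the deacetylases of that corepressor, were at -0.03 and 0.11 and did not pass the test. HDAC2 passed after rescaling to a common total, at 0.23 (limma, adjusted p = 0.0139), and after quantile normalization, at 0.18 (limma, adjusted p = 0.0292). SIN3B, the other SIN3 protein, was at -0.18 and did not pass either.

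Of 15 genes that control the stability of the MYC protein, 8 fell and 3 rose, with a median of -0.34 against 0.10 for all genes. The shares called were 53.3% lower and 20% higher, beside 25.9% and 32.5% of all genes. The 3 that passed the study's thresholds fell, as did 1.51% of all genes, namely PLK1 and the mitotic kinase AURKA, at -5.40 and -5.04, and CIP2A, an inhibitor of the phosphatase PP2A, at -2.90. All 3 are genes of dividing cells, and PLK1 is also counted among the activated targets. The 3 that rose were the ubiquitin ligase subunit FBXO32 at 0.81 (limma, adjusted p = 0.000477), TRIM32 at 0.37 (limma, adjusted p = 0.0347) and the kinase GSK3B at 0.26 (limma, adjusted p = 0.0286). The calls of TRIM32 and GSK3B were each lost in 4 of the 6 fits that left a culture out (limma, adjusted p up to 0.129 and 0.117), and GSK3B has a further entry in the tables at -0.09. FBXW7, the main ubiquitin ligase adaptor for MYC, was at 0.13 and did not pass the test. Protein levels were not measured here.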

How the data were processed

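RNA-seq of 6 REPC cultures, 3 control and 3 butyrate, was used. The authors trimmed reads of 150 bp with Trim Galore 0.4.1, aligned them with STAR, kept uniquely mapped reads and deposited FPKM per gene from Cufflinks with its confidence bounds. The submitters' processing notes name the build UMD3.1. Strand handling is not given in the sources used here. Chromosomes were assigned from the study's gene tables.

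Tables were joined by name and locus. FPKM values are not counts, so limma 3.58.1 (R 4.3.3, trend option on) was run on log2(FPKM + 0.1). It covered the 15813 genes whose mean FPKM reached 0.1, and 2 genes with a failed estimate were left out. Fragments per value were read from the bounds as 2 standard deviations of a counting error. With 3 cultures against 3, an exact permutation test cannot go below p = 0.1, so none is given. The test was checked on simulated data.

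The members, the lists and the tests were chosen with earlier results of these data known. The lists were written from textbook knowledge, and 1 gene was matched by an older symbol. All 10 members are named. In each list the genes past the study's thresholds are named, or else the 3 largest rises and falls that passed. Genes in counts of 5 or fewer, and SORD, TERT, TMEM97, ODC1, LDHA, MLX, HDAC1, HDAC2, SIN3B and FBXW7, were named after their values were seen. Alternatives were 2 other pseudocounts, 2 other filters, 2 scalings, no trend, the replicate block, each culture left out and the study's thresholds. The 2 genes named for their likeness to MYC come from the 3 with the highest Pearson r, and the other is not reported here. Sequences of the members were not used here.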

Additional observations from a re-analysis of the deposited data

How the results depend on the processing

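Over the alternatives run, 122 of 125 member fold changes kept their direction and their side of the threshold. The exceptions were MAX without control replicate 3 (-0.27, passing), MNT after quantile normalization (-1.31, passing) and MGA after quantile normalization (-0.21, reversed and not passing). The cause was not tested. MNT falls below the stricter filter at a mean of 1 FPKM, and MYCN has one only without a filter (0.54, limma, adjusted p = 0.296). FPKM gives no counts, and the depth limits MYCN and MNT most.

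With the study's thresholds, 389 genes were called higher and 238 lower, 0 members in either direction, 0 activated targets higher and 10 lower, 2 repressed targets higher and 0 lower, 0 E-box relatives in either direction, 0 cofactors in either direction, and 0 turnover genes higher and 3 lower. These counts come from limma and not from the Cufflinks test of the study, and the thresholds are stricter by construction. The repressed targets called lower went from 2 to 1 without a filter, without the trend, with the replicate block and after rescaling to TPM. The cofactors called higher went from 1 to 0 with the replicate block and to 2 after rescaling to TPM. The turnover genes called higher went from 3 to 1 without a filter and to 1 without the trend. Across the fits that each lacked a single culture, the counts ranged from 4515 to 4745 genes higher and 3672 to 3820 lower, 2 to 2 members higher and 3 to 4 lower, 1 to 2 activated targets higher and 58 to 59 lower, 10 to 10 repressed targets higher and 1 to 2 lower, 3 to 4 E-box relatives higher and 3 to 3 lower, 0 to 1 cofactors higher and 7 to 7 lower, and 1 to 2 turnover genes higher and 6 to 8 lower.

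The replicate numbers of control and butyrate cultures share only a number. Deviations of same-numbered cultures from their group means correlated at 0.0228, -0.00431 and 0.00177 across genes, all under 0.1, and not every culture correlated best with its own number. The replicate block gave 4956 genes higher and 4015 lower, 2 members higher and 3 lower, and 59 activated targets lower, and it left each fold change as it was. It ended the calls of CDKN1B, SIN3A, GSK3B and USP28.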

Other observations

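The tested genes nearest to each member on both sides of its locus were read as values, a choice made after seeing the data. Of these 20 neighbours, 6 were called higher and 9 lower, where 32.5% of all tested genes were called higher and 25.9% lower. The nearest tested neighbour of MXI1 before its start, ADD3 at 68262 bp, rose with it (1.15). SMNDC1, 5550 bp after MXI1, was at -0.30 and did not pass the test. The nearest tested neighbour of MYC before its start, LOC104973995 at 145156 bp, had a log2 fold change of -1.005 (limma, adjusted p = 0.0435). LOC101907803, 870514 bp after MYC, was at 1.54 and did not pass the test. MFSD2A, 49779 bp before MYCL, fell by 2.45 on the log2 scale while MYCL rose. TRIT1, 12387 bp after MYCL, was at 0.006 and did not pass the test. PRELID1 ended 249 bp before MXD3, and whether reads of one were counted for the other was not tested. Entries that overlapped a member, at MAX, MXI1 and MGA, had a mean FPKM of at most 0.0984 in either group.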
